A study of Mus musculus with 6 samples.

Results

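Homologous recombination and Fanconi anemia genes were examined in KPC cells in which Brca2, a central member of this group, had been silenced. The group comprised 47 genes chosen by name for roles in homologous recombination, BRCA complexes, the Fanconi anemia pathway and the DNA damage checkpoint. Of these, 43 were matched to rows of the count table of 10616 genes, 42 by their listed symbol and 1 through an older symbol (Shfm1, listed there as Sem1). Rad51c, Rad51d, Rmi2 and Brip1 were not analysed here. KPC is a mouse pancreatic ductal adenocarcinoma line derived from tumors of a genetically engineered mouse model. It was infected with a lentiviral pLKO.1 vector that carried either a Brca2 hairpin (shBrca2, 3 libraries) or a non-targeting hairpin (shControl, 3 libraries) and was selected with puromycin, so both groups share the vector and the selection. No DNA damaging agent is named in the labels, and the hairpin sequence and the number of clones are not given in the sources used here. Live cells were sorted and 3' end libraries were sequenced, with total counts per library between 1519340 and 2452467.

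Homologous recombination repairs double-strand breaks and collapsed replication forks by copying the sister chromatid. Broken ends are resected to single-stranded DNA, BRCA1 with BARD1 and PALB2 brings BRCA2 to them, strand exchange with the sister follows, and the joint molecules that form are dissolved or cut. The Fanconi anemia proteins act upstream on DNA interstrand crosslinks, and the ATM and ATR kinases signal the damage to the cell cycle. Cells that lack BRCA2, as in a share of pancreatic cancers, are sensitive to crosslinking agents and to PARP inhibitors.

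Of the 43 genes, only Brca2 was called changed, and it was lower in shBrca2. No other gene of resection, strand exchange, resolution, the Fanconi anemia pathway or the checkpoint passed the test in either direction. Calls came from the DESeq2 likelihood ratio test and required that p, adjusted by Benjamini-Hochberg over all genes, was under 0.1, that the change exceeded 0.5 on the log2 scale either way, and that the base mean (mean normalized count of the 6 libraries) exceeded 5. The background was 1.27% of 9997 genes called in either direction and 0.5% called lower, against 1 of the 42 analysed genes of this group that had an adjusted p. The number called higher was 0 by DESeq2 and 0 by edgeR, and 1 gene was higher at an unadjusted p under 0.05.

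Looser counts were set beside the same counts over all genes. At an unadjusted p under 0.05, 3 of the 43 genes were lower (Brca2, Xrcc2 and Rad9a), where the background was 3.88% of all genes, and 1 was higher (Brcc3), where it was 4.45%. Normalized counts of the groups did not overlap for 6 genes that were lower in shBrca2 (Brca2, Bard1, Xrcc2, Eme1, Fance and Rad9a), against 10.1% of all genes. They did not overlap for 2 genes that were higher (Fancf and Fancm), against 10.2%. Bard1, Fancf and Fancm were named after their values were seen. Apart from Brca2, the smallest adjusted p in the group was 0.553 by DESeq2.

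**Figure D1:**
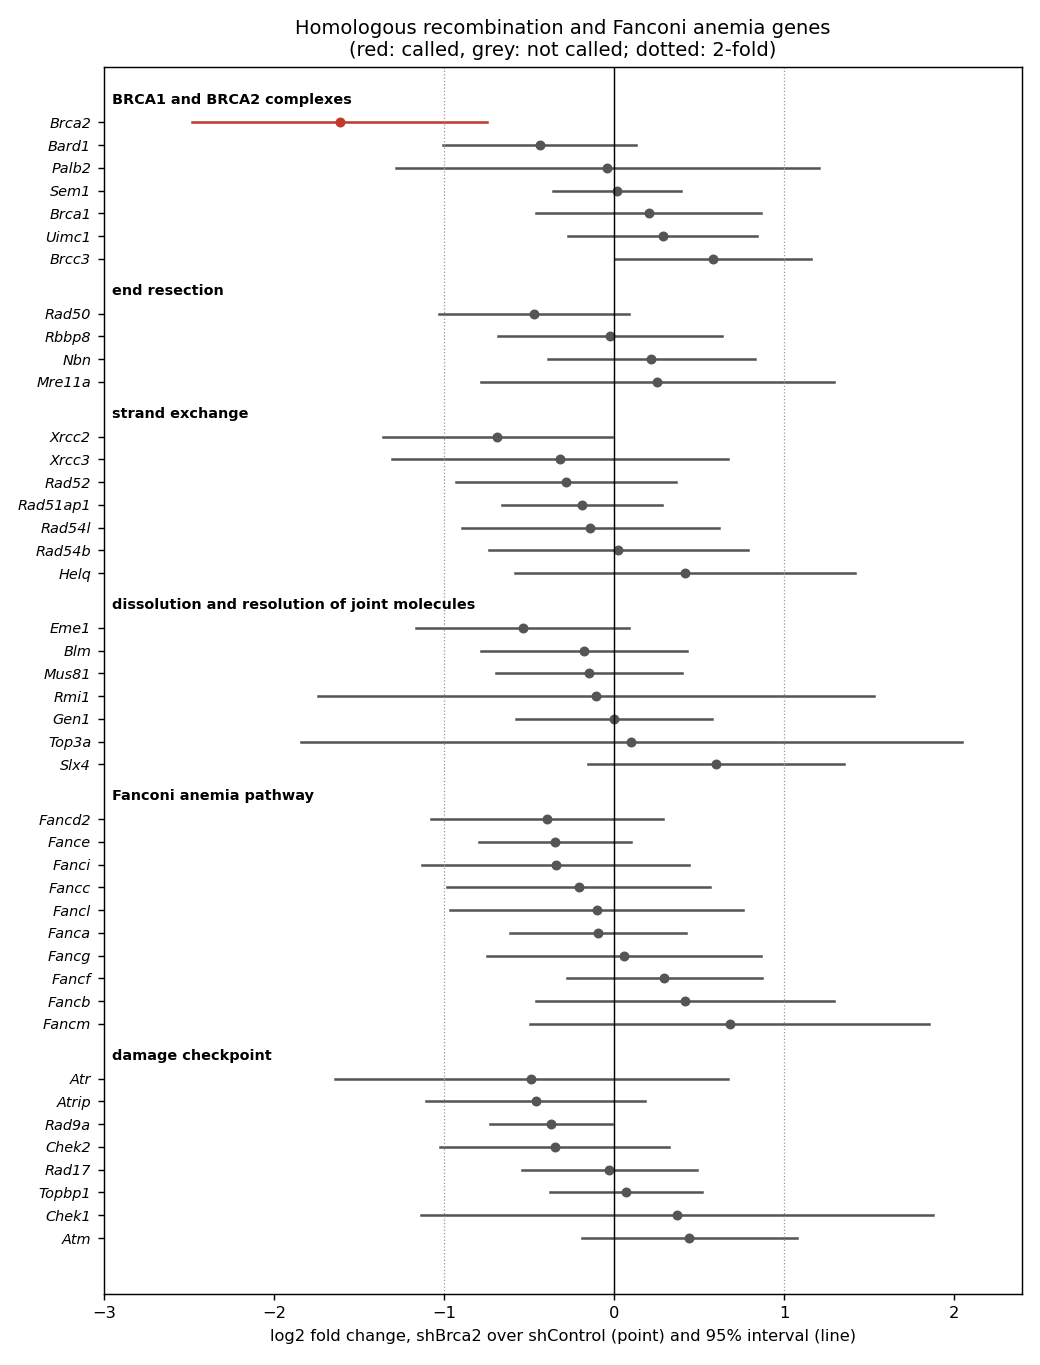
Log2 fold change of each of the 43 genes (x axis, shBrca2 over shControl) with its 95% interval, grouped by role. Only the interval of Brca2 (red, -2.48 to -0.75) belongs to a called gene, and 21 of the other 42 intervals lie wholly within a 2-fold change in either direction (dotted lines).

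The 95% interval of the log2 fold change, taken as the estimate ± the normal quantile times its standard error, shows what these data could bound. It lay wholly between -1 and 1, a 2-fold change either way, for 21 of the 42 genes other than Brca2, and for 61.9% of all genes with an adjusted p. It lay within a 1.5-fold change for 4 of the 42 genes and for 23.0% of all genes. For the other 21 genes a 2-fold change in at least one direction was within the interval, so a change of that size was not bounded at this depth. The widest intervals belonged to the rarest transcripts. Top3a, the topoisomerase of the dissolution complex, had 2 to 6 raw counts per library and an interval of -1.84 to 2.05. Rmi1, its partner, had 2 to 10 raw counts, and Chek1, the kinase activated by ATR, had 3 to 9.

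Brca2 was read first, as the targeted gene. It lies on chromosome 5, 150522297 to 150570147, plus strand, in GRCm38 (mm10), the build named in the submitters' processing notes and used for all positions here. It had normalized counts of 13.6, 10.4 and 12.2 under shBrca2 against 33.3, 43.6 and 32.6 under shControl, where a normalized count is a raw count divided by the size factor of its library. Every shBrca2 library was lower than every shControl library, which follows the labels. The log2 fold change was -1.61 ± 0.44 (SE) (DESeq2 adjusted p = 0.029). This is 0.327 times the control level, with a 95% interval from 0.179 to 0.596. The gene overlaps Gm25284, Gm23641 and Gm42529 in RefSeq. The adjusted p rose to 0.152 without shBrca2 replicate 2, 0.233 without shBrca2 replicate 3 and 0.371 without shControl replicate 2 (DESeq2).

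The 30 bases around an E2F-type motif are shown for the 5 genes of the group, Brca2 among them, that hold one before their start. E2F factors drive the S phase expression of many replication and recombination genes. The motif was searched as TTTCCCGC, TTTCGCGC, TTTGCCGC and TTTGGCGC on both strands of the 250 bases upstream of each RefSeq start, and no other motif was searched. Each sequence is given 5′ to 3′ on the strand of the gene, and the capitals mark the motif as it reads on that strand.
Brca2 (chr5:150522442-150522471, plus strand): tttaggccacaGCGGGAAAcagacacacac
Bard1 (chr1:71103163-71103192, minus strand): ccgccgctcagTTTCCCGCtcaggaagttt
Fancg (chr4:43010335-43010364, minus strand): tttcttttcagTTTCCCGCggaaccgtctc
Chek2 (chr5:110839820-110839849, plus strand): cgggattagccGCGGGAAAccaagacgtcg
Topbp1 (chr9:103305187-103305216, plus strand): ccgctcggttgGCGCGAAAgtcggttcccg
The match is TTTCCCGC in Brca2, Bard1, Fancg and Chek2 and TTTCGCGC in Topbp1, on the opposite strand in Brca2, Chek2 and Topbp1. It begins 168 bases before the start of Brca2, 209 before that of Bard1, 52 before that of Fancg, 152 before that of Chek2 and 129 before that of Topbp1. RefSeq's gene models reach past these starts, and all matches but that of Bard1 lie inside the gene. Brca2 and Bard1 were lower in every shBrca2 library than in every shControl library, while the groups of Fancg, Chek2 and Topbp1 overlapped. Of the 35 genes of the group with a promoter in the RefSeq table (GRCm38.p6), 5 (14.3%) held one of the 4 motifs, against 4.12% of 8544 genes of the count table and 2.16% of all promoters. In the lists described below the shares were 31.6% for S phase, 9.09% for end joining, 5.56% for mitosis and 2.86% for other genes of the same pathways. The median log2 fold change was -0.35 for the 5 genes with the motif and -0.07 for the 30 without it. The 5 values were -1.61 for Brca2, the targeted gene, -0.44 for Bard1, -0.35 for Chek2, 0.06 for Fancg and 0.07 for Topbp1. Among all genes of the table the median was -0.05 with the motif and 0.01 without it. In the S phase list it was -0.16 with the motif and -0.17 without it. The values of the group describe 5 genes, Brca2 among them, and a match is not a binding site.

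No partner of Brca2 in the BRCA complexes was called. Bard1, the partner of BRCA1 in a ubiquitin ligase (chromosome 1, 71027535 to 71103141, minus strand), had normalized counts of 43.6, 51.99 and 50.5 under shBrca2 against 73.8, 56.2 and 69.2 under shControl. Its log2 fold change was -0.44 ± 0.29 (SE) (DESeq2 adjusted p = 0.751). The groups did not overlap, but the interval of -1.004 to 0.13 includes 0. Brca1 had normalized counts of 38.1, 45.4 and 46.99 under shBrca2 against 47.5, 36.9 and 29.7 under shControl, and its groups overlapped (log2 fold change 0.20 ± 0.34 (SE)). Palb2, which bridges BRCA1 and BRCA2, had normalized counts of 14.98, 12.3 and 5.22 under shBrca2 against 7.07, 11.7 and 13.8 under shControl, with overlapping groups and a log2 fold change of -0.04 ± 0.63 (SE). 

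Sem1, a small acidic protein that binds BRCA2 and is also a proteasome subunit, had normalized counts of 823, 703 and 914 under shBrca2 against 1053, 648 and 716 under shControl. Its group means differed by less than the spread between replicates (0.01 ± 0.19 (SE)), and shControl replicate 1 stood above the others of its group. Its dispersion index, the chi-square of the raw counts around the group means per degree of freedom, was 38.2, the highest of the 43 genes, against a median of 1.71. An index near 1 is what counting noise alone gives. For the same relative spread the index rises with the count. Sem1 had the highest base mean of the group, 809 against a median of 42.1, so its index does not rank its relative spread. Its normalized counts were 813 ± 106 (SD) under shBrca2 and 806 ± 217 (SD) under shControl. Sem1 lies on chromosome 6, 6558275 to 6578658, minus strand and overlaps Gm52889.

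The BRCA1-A complex, which holds BRCA1 at ubiquitin marks beside breaks, had 5 subunits analysed, of which 0 were called. Brcc3 and Uimc1, in the group, had fold changes above 0. Babam1, Babam2 and Abraxas1, in the list of related genes, were at -0.18 ± 0.15 (SE), -0.13 ± 0.22 (SE) and -0.04 ± 0.55 (SE) on the log2 scale. Brcc3, its deubiquitinase on the X chromosome (chromosome X, 75416628 to 75455702, plus strand), had normalized counts of 68.1, 102 and 78.3 under shBrca2 against 44.5, 48.6 and 74.2 under shControl. The lowest shBrca2 library lay below the highest shControl library, so the groups overlapped. DESeq2 put the log2 fold change at 0.58 ± 0.29 (SE), with an unadjusted p of 0.049 and an adjusted p of 0.572. With the transcript GC trend removed it was 0.19, with an unadjusted p of 0.576 by DESeq2. Uimc1 (RAP80), the subunit that binds the ubiquitin chains, was at 0.28 ± 0.28 (SE) on the log2 scale with overlapping groups. Brcc3 and Fancb are the 2 genes of the group on the X chromosome. Of 278 X-linked genes with a base mean over 5, 87.1% had a fold change above 0, with a median of 0.35 on the log2 scale, while 50.3% of all such genes were below 0. The part of this shift in the values of Brcc3 and Fancb (0.42) was not tested.

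**Figure D2:**
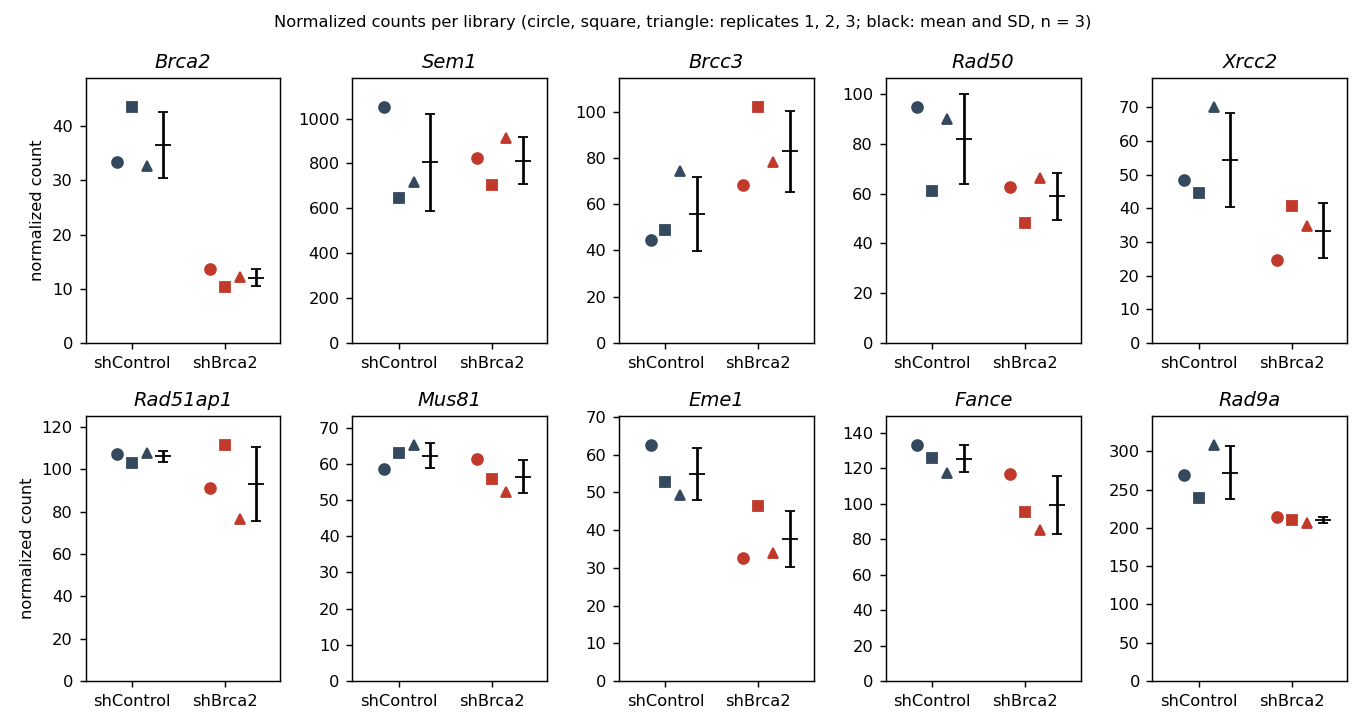
Normalized counts (y axes, from 0) of the 10 genes described by the fixed rule in each library, with group means and SDs in black. Brca2 is the only panel with a wide gap between the groups, and Sem1, Brcc3, Rad50, Rad51ap1 and Mus81 overlap.

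Of the 4 end resection genes, 0 were called, and 2 fold changes were below 0 and 2 above. Rad50, the ATPase of the MRE11-RAD50-NBS1 complex that senses and trims ends (chromosome 11, 53649519 to 53707319), had normalized counts of 62.7, 48.2 and 66.1 under shBrca2 against 94.98, 61.2 and 89.98 under shControl. The highest shBrca2 library exceeded the lowest shControl library, and the log2 fold change was -0.47 ± 0.28 (SE) (adjusted p = 0.702 by DESeq2). Its partners had fold changes above 0, 0.22 ± 0.31 (SE) for Nbn and 0.25 ± 0.53 (SE) for Mre11a, the nuclease. Rbbp8 (CtIP), which starts resection with this complex, was at -0.02 ± 0.34 (SE) on the log2 scale, with all 6 libraries between 34.03 and 42.6 normalized counts.

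Of the 7 strand exchange genes, 0 were called and 5 had fold changes below 0. Xrcc2, a strand exchange mediator that acts beside BRCA2 (chromosome 5, 25689814 to 25705797), had normalized counts of 24.5, 40.6 and 34.8 under shBrca2 against 48.5, 44.4 and 70.2 under shControl. Each shBrca2 library was lower than each shControl library, by a narrow gap of 40.6 against 44.4. The log2 fold change of -0.69 ± 0.34 (SE) was the lowest of the group after Brca2, at 62.1% of the control level, with an unadjusted p of 0.0453 (DESeq2 adjusted p = 0.56). Xrcc3, which acts in strand exchange and the processing of joint molecules, was at -0.32 ± 0.50 (SE) on the log2 scale with overlapping groups.

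Rad51ap1, which stimulates strand invasion (chromosome 6, 126923415 to 126939621, minus strand), had normalized counts of 91.3, 112 and 76.6 under shBrca2 against 107, 103 and 108 under shControl. The shControl values lay within 5 counts of each other and inside the range of the shBrca2 values, so the groups overlapped (log2 fold change -0.19 ± 0.24 (SE)). The annealing factor Rad52 and the translocase Rad54l had log2 fold changes of -0.28 ± 0.33 (SE) and -0.14 ± 0.39 (SE). Rad54b had 0.03 ± 0.39 (SE) and the helicase Helq 0.42 ± 0.51 (SE). None of these 4 genes was called.

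Of the 7 genes that dissolve or cut joint molecules, 0 were called. Eme1, the regulatory subunit of the MUS81 nuclease (chromosome 11, 94644972 to 94653836, minus strand), had normalized counts of 32.7, 46.3 and 33.9 under shBrca2 against 62.6, 52.8 and 49.4 under shControl. The groups did not overlap, but the gap of 46.3 against 49.4 was narrow, and the log2 fold change was -0.54 ± 0.32 (SE) (adjusted p = 0.696 by DESeq2). Eme1 overlaps Lrrc59 and Mrpl27 on the opposite strand, and since it is unknown whether strand was used in counting, reads of these genes may be mixed. Mus81, its catalytic partner (chromosome 19, 5482561 to 5488389, minus strand), had normalized counts of 61.3, 55.8 and 52.2 under shBrca2 against 58.6, 62.9 and 65.3 under shControl, with overlapping groups and a log2 fold change of -0.15 ± 0.28 (SE). Its dispersion index of 0.257 was the lowest of the group. On the log2 scale, the resolvase Gen1 was at -0.0024 ± 0.29 (SE) and the helicase Blm at -0.18 ± 0.31 (SE). Slx4, the scaffold that holds MUS81 and other nucleases, had normalized counts of 50.4, 58.6 and 29.6 under shBrca2 against 20.2, 29.4 and 41.5 under shControl, a wide spread in both groups, and a log2 fold change of 0.60 ± 0.38 (SE).

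The Fanconi anemia pathway was represented by 10 genes, of which 0 were called, with 6 fold changes below 0 and 4 above. Fance, the core complex subunit that contacts FANCD2 (chromosome 17, 28313530 to 28326574, plus strand), had normalized counts of 117, 95.5 and 85.3 under shBrca2 against 133, 126 and 118 under shControl. The groups just missed each other, at 117.1 against 117.7, and the log2 fold change was -0.35 ± 0.23 (SE) (adjusted p = 0.746 by DESeq2). Its interval of -0.80 to 0.10 excludes a 2-fold change, and its value was -0.16 with the transcript GC trend removed. The core subunits Fanca, Fancb, Fancc, Fancg and Fancl, the last of which is the ubiquitin ligase, had fold changes from -0.21 to 0.42 on the log2 scale with overlapping groups.

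Fancf, the adaptor of the core complex, had normalized counts of 59.9, 52.9 and 63.5 under shBrca2 against 47.5, 47.8 and 48.4 under shControl. All 3 shBrca2 libraries were above all 3 shControl libraries, and the log2 fold change was 0.30 ± 0.29 (SE) (adjusted p = 0.888 by DESeq2). Fancf overlaps Gas2 on the opposite strand, and their reads may be mixed. Fancm, the translocase that anchors the core complex on DNA, had normalized counts of 13.6, 15.1 and 15.7 under shBrca2 against 4.04, 11.7 and 11.9 under shControl, a log2 fold change of 0.68 ± 0.60 (SE) at 4 to 18 raw counts per library. FANCD2 and FANCI form the clamp that the core complex ubiquitylates. Fancd2 had normalized counts of 39.5, 26.5 and 37.4 under shBrca2 against 34.4, 51.99 and 48.4 under shControl, and Fanci had normalized counts of 21.8, 18.9 and 35.7 under shBrca2 against 37.4, 31.9 and 28.7 under shControl. Both had overlapping groups, with log2 fold changes of -0.39 ± 0.35 (SE) and -0.34 ± 0.40 (SE).

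Of the 8 checkpoint genes, 0 were called. Rad9a, part of the clamp that is loaded at damaged DNA and activates ATR (chromosome 19, 4195196 to 4201672), had normalized counts of 214, 211 and 206 under shBrca2 against 269, 239 and 308 under shControl. The shBrca2 libraries lay close together and below each shControl library. The log2 fold change of -0.37 ± 0.18 (SE) was below the size required of a call, the unadjusted p was 0.0417 and the adjusted p was 0.553 by DESeq2. Rad9a overlaps Ppp1ca, and their reads may be mixed. Rad17, the loader of that clamp, and Topbp1, which the clamp brings to ATR, had log2 fold changes of -0.03 ± 0.26 (SE) and 0.07 ± 0.23 (SE).

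The checkpoint kinases had fold changes of both signs, and none was called. Atm had normalized counts of 57.2, 57.7 and 59.2 under shBrca2 against 31.3, 37.7 and 59.3 under shControl, with the shBrca2 libraries within 2 counts of each other, shControl replicate 3 as high as they were, and a log2 fold change of 0.44 ± 0.32 (SE). Atr had -0.49 ± 0.59 (SE) and its partner Atrip -0.46 ± 0.33 (SE), both with overlapping groups. Chek2, the kinase activated by ATM, had normalized counts of 40.9, 77.5 and 33.9 under shBrca2 against 66.7, 48.6 and 80.1 under shControl. Its libraries spread widely in both groups (dispersion index 7.76), and the log2 fold change was -0.35 ± 0.34 (SE).

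Partners in a complex were then compared within each library, as the log2 ratio of their normalized counts with a pseudocount of 1, since such a ratio hardly depends on the scaling of the library. The 8 pairs were chosen after the fold changes were known. Bard1 over Brca1 was 0.188, 0.192 and 0.101 under shBrca2 against 0.625, 0.594 and 1.195 under shControl, a difference of -0.64 between the group means. Nbn over Rad50 was 0.228, 0.132 and 0.209 under shBrca2 against -0.230, -0.278 and -1.032 under shControl, a difference of 0.70. For both pairs, and for Palb2 over Brca2 (a difference of 1.45, which follows the targeted gene), the groups did not overlap. The exact two-sided permutation test gave p = 0.1 for these 3 pairs, the smallest that 3 against 3 libraries allow, and 0.267 after Benjamini-Hochberg adjustment over the 8 pairs. Because the pairs were chosen with the same values known, these p-values cannot serve as a test of them. Among single genes, groups did not overlap for 10.1% (lower) and 10.2% (higher) of all genes, and no such share was computed for ratios. Mre11a over Rad50 (a difference of 0.81, exact permutation p = 0.3) and Eme1 over Mus81 (-0.40, exact permutation p = 0.2) had overlapping groups. The differences for Fancd2 over Fanci (0.02), Atrip over Atr (-0.04) and Rmi1 over Blm (-0.06) were smaller than the spread between replicates (exact permutation p from 0.9 to 1).

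**Figure D3:**
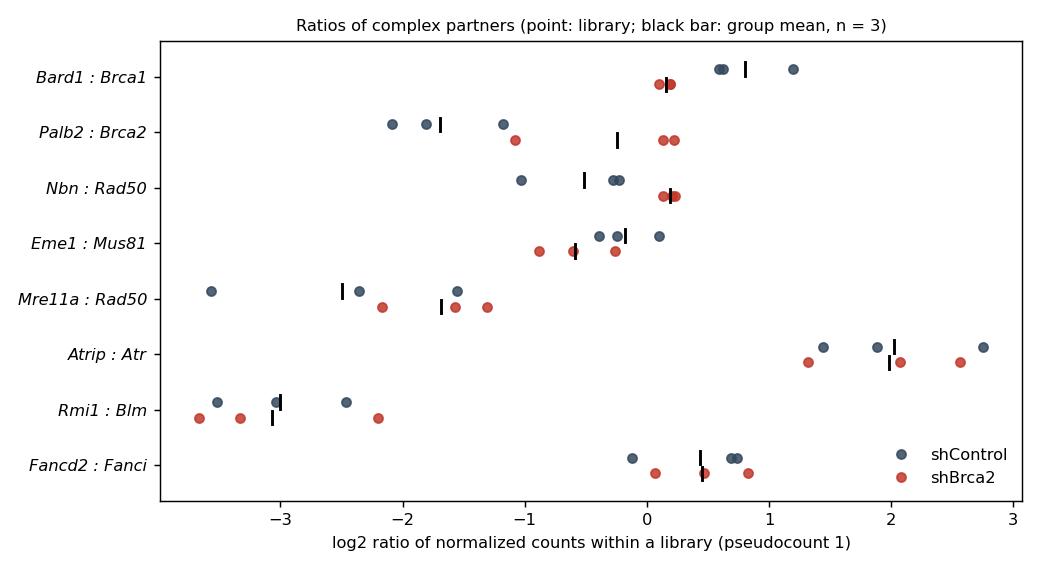
Log2 ratio of normalized counts of 2 partners within each library (x axis) for 8 pairs, with shControl in blue-grey, shBrca2 in red and group means as black bars. The groups are apart for Bard1 over Brca1, Palb2 over Brca2 and Nbn over Rad50, and overlap for the other 5 pairs. All 8 pairs were chosen after the fold changes were known.

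Over all 43 genes, 26 fold changes (60.5%) were below 0, with a median of -0.10 on the log2 scale, against 50.1% and a median of 0.00 over all genes of the table. Without Brca2 the median was -0.07. The median of the 43 genes moved when single libraries were left out, and it stayed below 0 each time. It was -0.06, -0.02 and -0.08 without shBrca2 replicates 1, 2 and 3 in turn. Without shControl replicates 1, 2 and 3 in turn it was -0.16, -0.14 and -0.05. With the transcript GC trend removed it was -0.18. The summed counts of the group took 0.128% to 0.138% of each shBrca2 library and 0.129% to 0.151% of each shControl library, and the groups overlapped. Sem1 alone took 0.0315% to 0.0497% of each library. Without it, a choice made after seeing the data, the other 42 genes took 0.0939% to 0.0955% under shBrca2 and 0.0977% to 0.110% under shControl, and the groups did not overlap. The ranges without Brca2 as well were 0.0933% to 0.0948% and 0.0956% to 0.109%.

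Other genes of the same pathways were read from a list of 42, of which 40 were analysed here. The list covers RPA, nucleases, ubiquitin signalling at breaks and further checkpoint factors. None was called, at an unadjusted p under 0.05 there were 2 lower and 1 higher, and the median log2 fold change was -0.07. The smallest p belonged to Ercc1, the partner of the XPF nuclease in crosslink repair. It had normalized counts of 99.4, 71.8 and 64.4 under shBrca2 against 134, 129 and 131 under shControl, with each shBrca2 library below each shControl library. Its log2 fold change was -0.76 ± 0.24 (SE) (DESeq2 adjusted p = 0.119), outside the threshold. The others with an unadjusted p under 0.05, named after their values were seen, were Rad51b, a mediator of strand exchange, at -1.11 ± 0.52 (SE), and H2ax, the histone phosphorylated at breaks, at 0.32 ± 0.15 (SE). Both had adjusted p-values above 0.5 by DESeq2.

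Many recombination genes are expressed mainly in S and G2 phase, so the values of proliferation genes are given beside them. Their medians were also below 0. Of 21 mitosis genes, 16 fold changes were below 0, with a median of -0.16, and 0 were called. Their summed counts took 0.260% to 0.282% of the shBrca2 libraries and 0.300% to 0.313% of the shControl libraries. Of 22 S phase genes, 15 were below 0, with a median of -0.14, and 0 were called. Their summed counts took 0.277% to 0.281% and 0.296% to 0.306%. Neither pair of ranges overlaps, which also held for the summed ductal epithelial markers described below. The part of proliferation in the values of the recombination genes was not tested, and in bulk samples fewer cells in a phase and less RNA per cell cannot be told apart. The smallest p of the mitosis list belonged to Kif23, a kinesin of cytokinesis (-0.43 ± 0.17 (SE), adjusted p = 0.322 by DESeq2), and that of the S phase list to Uhrf1, a chromatin factor (-0.46 ± 0.23 (SE), adjusted p = 0.542 by DESeq2). The 1 other gene of these lists with an unadjusted p under 0.05 was Bub1, a spindle checkpoint kinase, whose fold change had the opposite sign (1.07 ± 0.45 (SE), adjusted p = 0.402 by DESeq2) and whose groups overlapped.

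End joining, the competing route of break repair, had 13 genes analysed, of which 0 were called and 9 had fold changes below 0, with a median of -0.06. The smallest p belonged to Xrcc1, a scaffold of single-strand break repair and alternative end joining, at -0.61 ± 0.27 (SE) (adjusted p = 0.457 by DESeq2).

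**Figure D4:**
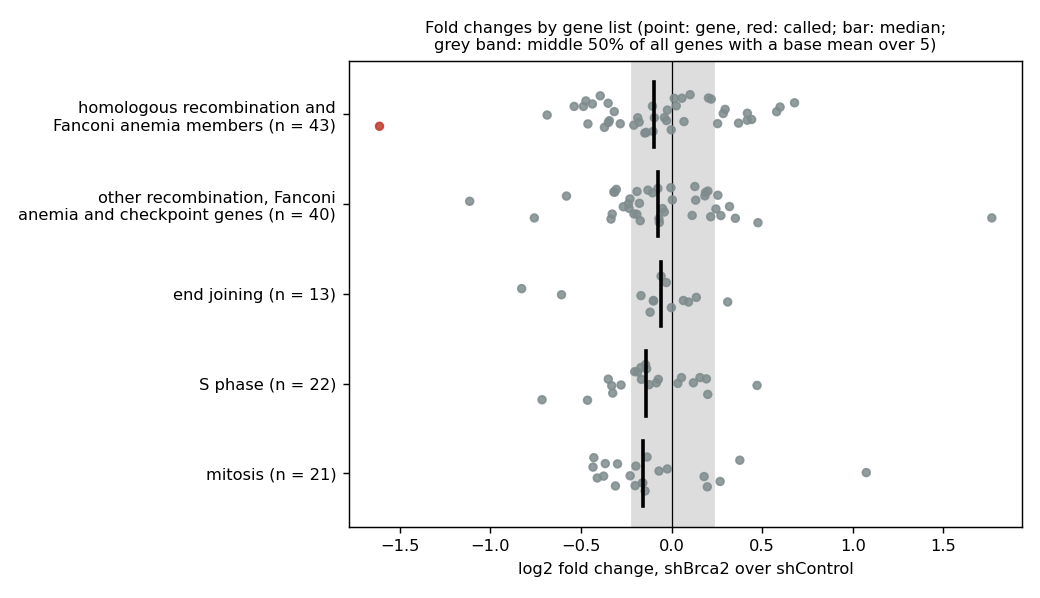
Log2 fold changes (x axis) of the genes in 5 lists, with the median of each list as a black bar and the middle 50% of all genes with a base mean over 5 as a grey band (-0.22 to 0.23). Brca2 is the only called gene (red), and the medians of all 5 lists lie within the band, between -0.16 and -0.06.

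The labelled cell type was checked against its markers. Of 8 ductal epithelial markers 7 were analysed, among them Krt18, Krt19 and Krt8 with 6034 to 11173, 3428 to 5088 and 2270 to 3725 raw counts per library, while Epcam had 3 to 10. The listed ductal genes Krt7, a keratin, and Sox9, a ductal transcription factor, were called higher in shBrca2 by DESeq2, at 1.21 ± 0.20 (SE) and 1.20 ± 0.34 (SE) on the log2 scale. The summed level of the ductal list was 0.809% to 0.838% of counts in the shBrca2 libraries and 0.841% to 0.920% in the shControl libraries. These ranges did not overlap either, as for the proliferation lists. The part of the ductal list in the values of the recombination genes was not tested. Of 7 fibroblast markers 1 was analysed (Col1a2, 8 to 22 counts), of 6 immune markers 1 (Cd68, 11 to 20 counts), of 4 endothelial markers 0 and of 4 acinar markers 2. On log2 normalized counts, the leading principal component (40.9% of the variance) did not separate the groups, with shControl replicate 3 farthest from the others. The next component did, with shBrca2 at 4.66, 17.67 and 11.83 against shControl at -31.95, -5.51 and 3.29. The gap between the groups there was narrow, and shControl replicate 1 lay farthest from the others.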

How the data were processed

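The authors deposited raw counts, 1 row for each gene symbol and 1 column for each of 6 libraries, with no normalization and no pooling of replicates. The method was a variant of MARS-seq that reads 3' ends, so a count does not scale with transcript length. The submitters' processing notes name bcl2fastq, cutadapt, STAR 2.4.2a, HTSeq, DESeq2 and mm10. Annotation, strand setting and molecular identifiers are not given in the sources used here. Reads may thus be mixed for any overlapping gene, such as Xrcc3 (Klc1), Rad54l (Lrrc41), Rmi1 (Hnrnpk), Gen1 (Smc6), Fanci (Polg) and Fancl (Vrk2). The standard errors are those of DESeq2, which include the spread between libraries as well as counting error. Each gene in the table reaches at least 6 counts in some library. The labels do not say whether replicates were separate cultures, and the study counts them in mice while describing cultured cells, so p-values measure the spread between these libraries, which may be technical.

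Groups were taken from the source name. Replicate numbers follow the order of the sample titles within each group, so equal numbers do not mark pairs. All 10616 genes were fitted with DESeq2 1.42.0 in R 4.3.3 (median-of-ratios size factors, likelihood ratio test, group term against none), which follows the study's methods, and p-values were adjusted over all genes. DESeq2 gave no adjusted p to 619 genes, Top3a among them, by its filter on low means (under 4.64) or as a count outlier. Fold changes were not shrunken. Values in every library are given for Brca2, each called gene, each gene with an unadjusted p under 0.05 and, in each role, the genes with the highest base mean and the smallest p. Others were added for their role or after their values were seen. The genes and lists were chosen with earlier results of these data known. Alternatives tried were the Wald test, the edgeR 4.0.16 quasi-likelihood test, TMM factors or total counts, 2 other filters, an adjusted p under 0.05, no fold minimum, removal of the loess trend (span 0.5) on transcript GC content, and each library left out in turn. Transcript GC came from GENCODE vM39 and covered all 43 genes. Positions and promoters came from RefSeq on GRCm38.p6. The fit was tested on simulated counts.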

Additional observations from a re-analysis of the deposited data

How the results depend on the processing

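No gene of the group other than Brca2 was called under any of the 18 alternatives, and the smallest adjusted p of the others lay between 0.261 and 0.928 (DESeq2 or edgeR). The number of genes called, and the number called lower, was 0 with TMM factors, with genes kept only if 3 or more libraries had 10 or more counts and with the transcript GC trend removed. In these 3 fits DESeq2 gave Brca2 no adjusted p, since its independent filter on low means rose above it. With that filter off, chosen after seeing the data, 1 gene was called in each, and the log2 fold change of Brca2 was -1.61, -1.61 and -1.84. Across the 6 fits that each left out 1 library, the number called ranged from 0 to 1, and the log2 fold change of Brca2 from -1.70 to -1.46 with its call lost in 3 of them. Fewer libraries lower the power of each fit. The median log2 fold change of the group ranged from -0.158 to -0.019 across those fits and was -0.18 with the GC trend removed, with or without the independent filter, the cause of which was not tested. The Wald test, the fit with no independent filtering, an adjusted p under 0.05 and no fold minimum leave the fold changes as they were. Direction could not change under these, and an adjusted p under 0.05 could not add a call. With these included, 157 of 162 comparisons of the 9 other genes chosen by the fixed rule kept their direction, 0 gained a call and 5 reversed. These 5 were all Sem1, whose value was 0.01, at -0.18 with the GC trend removed, with or without the filter, and from -0.12 to 0.25 across the fits that left out 1 library. Removing the GC trend also took Brcc3 to 0.19, Fance to -0.16, Mus81 to -0.01 and Rad51ap1 to -0.29, and Rad51ap1 ranged from -0.35 without shBrca2 replicate 2 to -0.05 without shBrca2 replicate 3. The 3 genes lower at an unadjusted p under 0.05 became 5 by edgeR, included Rad50 in place of Rad9a with the GC trend removed, and were 1 without shBrca2 replicate 1, shBrca2 replicate 3, shControl replicate 1 or shControl replicate 3. The 1 gene higher became 0 without shBrca2 replicate 2, shControl replicate 1 or shControl replicate 2, with total counts and with the GC trend removed, and 3 without shControl replicate 3. The shares over all genes at that threshold were taken for the main fit only. These changes in count therefore have no background and cannot be read as results about the group. No paired analysis was possible because the labels give the groups no shared replicate numbers. Low counts limit Top3a, Rmi1, Chek1, Palb2, Atr and Fancm most, with base means from 3.79 to 12.01.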

Other observations

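Fold changes of the group can be read beside the chromosomes they lie on. Chromosome 13 stood next after the X chromosome, with 69.7% of its 363 genes with a base mean over 5 above 0 and a median log2 fold change of 0.15. Of its 4 genes of the group 1 was above 0, with log2 fold changes of 0.28 for Uimc1, -0.11 for Rmi1, -0.21 for Fancc and -0.03 for Rad17. On chromosome 17, which had the largest share below 0, 38.2% of 503 genes were above 0, and the 1 gene of the group there was Fance (-0.35). On chromosome 9, which holds 6 genes of the group, 57.0% of 567 genes were above 0, and Atm, Chek1, Mre11a and Topbp1 were above 0 and Atr and Atrip below.

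The spread of the group between replicates was set beside counting noise, for which the index is near 1. The dispersion index of the 43 genes had a median of 1.71, against 1.84 for all genes in the same range of base means. Since the index rises with the count for the same relative spread, it also depends on how abundant each transcript is. Besides Sem1 and Chek2, the highest values were 4.75 for Nbn, 4.597 for Slx4 and 4.08 for Fancl. The highest value of a gene of the group fell in shControl replicate 1 for 11 genes and in shControl replicate 2 for 4.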
